A study of Homo sapiens with 23 samples.

Results

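The Notch receptors, ligands and targets described here are 10 genes out of 21658 in the expression table. The receptors are NOTCH1, NOTCH2, NOTCH3 and NOTCH4, the ligands are JAG1, JAG2 and DLL1, and the targets are HES1, HEY1 and HEY2. They were chosen by name through their NCBI Gene IDs, and each of the 10 had a value in every library.

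The established human ovarian cancer cell lines OV-90, Kuramochi, OVSAHO and EFO-21 were profiled by RNA-seq of stranded mRNA libraries. Each line was compared in its parental form and in a form resistant to prexasertib, an inhibitor of the checkpoint kinase CHK1, obtained by culture in rising drug concentrations over a long period. The comparison bears on which genes accompany acquired resistance. The 8 groups were parental OV-90 with 2 libraries, and resistant OV-90, parental and resistant Kuramochi, parental and resistant OVSAHO, and parental and resistant EFO-21 with 3 libraries each, 23 in all. The table holds 1 resistant form of each line, so what is particular to that form and what goes with resistance cannot be told apart. Libraries are named here by the number in the table, from 2 to 24.

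Notch receptors are single-pass membrane proteins that are cleaved after binding a Jagged or Delta-like ligand on a neighbouring cell. The released intracellular domain enters the nucleus, binds the DNA-binding protein RBPJ together with a Mastermind coactivator, and turns on repressors of the HES and HEY families. In ovarian carcinoma the pathway is best known through NOTCH3, a gene that is amplified in some high-grade serous tumours.

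All levels are log2 expression values as deposited, already quantile normalized, and a difference of 1 on this scale is 2-fold. The table holds no counts, so the depth of each library is unknown, and only the variation among libraries of a group shows the precision. A gene was called changed at an adjusted p under 0.05 from limma over all genes together with a difference of at least 2-fold. A value is said to be at the bottom where it does not exceed its library's 10th percentile. On simulated libraries, changes of low and variable genes were often missed by the same test. The lack of a call for NOTCH4, DLL1, HEY1 or HEY2 therefore says little in lines where the gene was low or variable.

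Some libraries stood apart. The 2 parental OV-90 libraries had the largest median absolute difference of the 22 pairs of libraries within groups, 0.363. Parental Kuramochi library 4 differed from libraries 5 and 6 by medians of 0.284 and 0.325, against 0.138 between the latter. The parental OV-90 libraries also read long transcripts low. Relative to each gene's mean, the longest of 10 groups of genes by transcript length had a median of -0.89 in library 2 and -0.44 in library 3, and the shortest group had 0.50 and 0.34. In library 4 the trend ran the other way, from -0.16 for the shortest to 0.38 for the longest, a step of 0.54. Similar steps were seen in resistant EFO-21 libraries 22, 23 and 24 (0.50, 0.33 and 0.40) and resistant Kuramochi library 17 (0.36), and steps of -0.42 and -0.30 in parental OVSAHO libraries 7 and 8.

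The first comparison asked how the parental lines differ. Of 60 tests, 10 members in 6 pairs of lines, 41 were called. Between OV-90 and Kuramochi 9 of the 10 members differed, against 47.0% of all genes. OV-90 differed from OVSAHO in 8 members and from EFO-21 in 8, where 48.1% and 50.2% of all genes were called. Kuramochi and OVSAHO differed in 6 members, against 37.6% of genes, and OVSAHO and EFO-21 in 6, against 44.2%. Kuramochi and EFO-21 differed in 4, against 41.3%, which is close to that background. That count moved with the library left out. Without library 5 DLL1 (-1.11), JAG2 (1.02) and NOTCH4 (-1.13) were called as well, and without library 4 or 11 NOTCH2 lost its call.

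Among the receptors, NOTCH3 separated the parental lines most clearly. Its levels in parental Kuramochi libraries were 8.96, 8.27 and 8.30, and its mean was 8.51 ± 0.39 (SD, n = 3). The means were 5.98 ± 0.05 (SD, n = 3) in OVSAHO, 4.87 ± 0.11 (SD, n = 2) in OV-90 and 4.71 ± 0.08 (SD, n = 3) in EFO-21. Kuramochi lay 2.53 above OVSAHO (adjusted p = 6.47e-07) and OVSAHO lay 1.11 above OV-90 (adjusted p = 0.000471), while OV-90 and EFO-21 were not told apart (adjusted p = 0.463). With each library's trend over transcript length removed, an alternative chosen after seeing the data, OV-90 minus OVSAHO was -0.501 (adjusted p = 0.00611), under 2-fold.

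NOTCH1 and NOTCH2 were lowest in OV-90. NOTCH1 had parental means of 6.38 ± 0.33 (SD, n = 3) in Kuramochi, 6.12 ± 0.01 (SD, n = 3) in EFO-21, 5.76 ± 0.10 (SD, n = 3) in OVSAHO and 3.65 ± 0.30 (SD, n = 2) in OV-90. Only the last step of that order, 2.12 between OVSAHO and OV-90, was called among neighbours (adjusted p = 5.38e-06). NOTCH2 followed the order Kuramochi, OVSAHO, EFO-21 and OV-90, and again the step to OV-90, 2.91, was the only one called between neighbours (adjusted p = 6.85e-05). The step from Kuramochi to OVSAHO gained a call without library 5, at 1.04, or library 6, at 1.09. NOTCH2 in Kuramochi minus EFO-21, 1.05 (adjusted p = 0.0203), lost its call without library 4, at 0.622, or library 11, at 1.04 (adjusted p = 0.0511), and with the length trend removed, at 0.979. NOTCH4, whose value rests on 3 exons, lay between 1.91 and 3.98 in the 11 parental libraries, and no neighbours in its order were told apart as deposited. Its highest and lowest parental lines, EFO-21 and OVSAHO, were apart, with OVSAHO minus EFO-21 at -1.08 (adjusted p = 0.0339), a call lost without library 8, 9, 10, 11 or 12 and with the length trend removed. With that trend removed NOTCH4 was called for OV-90 minus Kuramochi, at 1.27, and for OV-90 minus OVSAHO, at 1.35.

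The ligands differed in another order. JAG1, a Jagged ligand, had parental means of 8.46 ± 0.33 (SD, n = 3) in Kuramochi and 8.44 ± 0.05 (SD, n = 3) in EFO-21. These 2 lines were not told apart (adjusted p = 0.962), and OV-90 at 7.40 ± 0.68 (SD, n = 2) and OVSAHO at 6.21 ± 0.10 (SD, n = 3) followed. The OV-90 step did not hold throughout: OV-90 minus EFO-21 was -0.529 with the length trend removed, -0.555 without library 2 and -0.967 with libraries recentred, all under 2-fold. OV-90 minus Kuramochi was likewise -0.558 with the length trend removed, -0.569 without library 2, -0.86 without library 4 and -0.967 with libraries recentred, and OV-90 minus OVSAHO was 0.716 without library 3. JAG2, the other Jagged ligand, was low in OV-90 alone among the parental lines, with 2.77 and 2.29 in its 2 libraries against 6.24 to 7.35 in the other 9. DLL1, a Delta-like ligand, was at the bottom in parental Kuramochi libraries 4 and 6, and its parental mean was highest in OVSAHO at 4.16 ± 0.35 (SD, n = 3). OVSAHO and OV-90, at 3.79 ± 0.28 (SD, n = 2), were not told apart for DLL1 (adjusted p = 0.372).

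Among the targets, HES1, a HES family repressor, ran from OV-90 at 10.38 ± 0.03 (SD, n = 2) through EFO-21 at 9.30 ± 0.15 (SD, n = 3) and Kuramochi at 8.62 ± 0.14 (SD, n = 3) to OVSAHO at 6.78 ± 0.12 (SD, n = 3). With the length trend removed the step from OV-90 to EFO-21 was 0.776, under 2-fold. HEY2, a HEY family repressor, differed in all 6 pairs of parental lines. Its parental means were 7.24 ± 0.18 (SD, n = 3) in Kuramochi, 5.32 ± 0.19 (SD, n = 3) in OVSAHO, 2.55 ± 0.47 (SD, n = 2) in OV-90 and 0.585 ± 0.21 (SD, n = 3) in EFO-21, where every library was at the bottom. With values raised to the 10th percentile, HEY2 in OV-90 minus EFO-21 was 0.728, under 2-fold. HEY1, a repressor of the same family, was called in 5 of 6 pairs and was not told apart between EFO-21 and OVSAHO (adjusted p = 0.498). Without library 2 its difference of OV-90 minus Kuramochi was -0.852 (adjusted p = 0.0976).

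**Figure D1:**
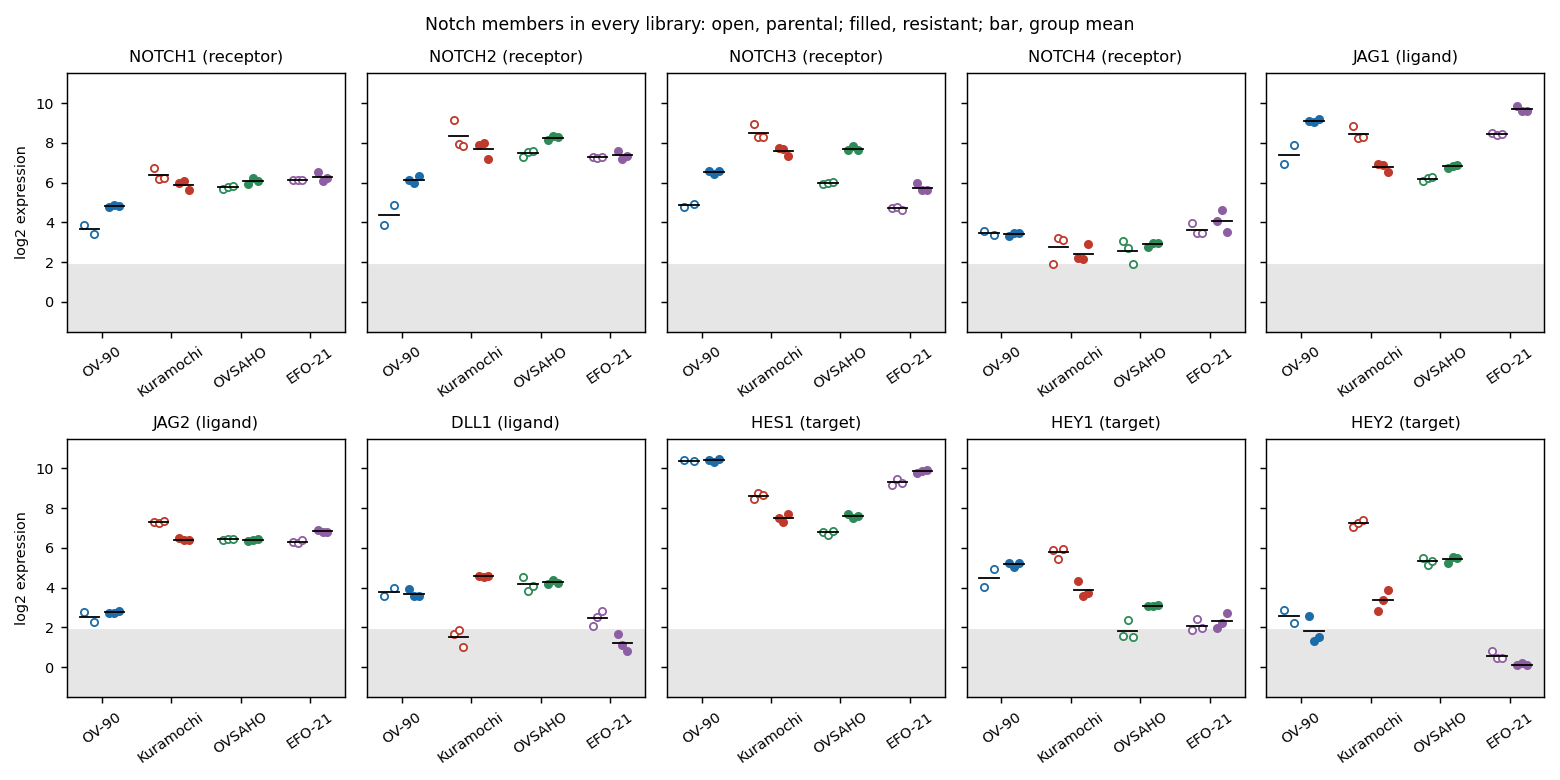
Log2 expression of each of the 10 genes in each library by cell line, with open circles for parental and filled circles for resistant libraries, bars for group means and grey for the range up to the highest library's 10th percentile. Kuramochi HEY2 falls from between 7.05 and 7.42 to between 2.84 and 3.89.

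The second comparison set resistant against parental libraries within each line. In OV-90, 4 members were called higher, against 9.50% of all genes, and 0 were called lower, against 6.56%; limma gave 4 and 0 at an unadjusted p under 0.05. In Kuramochi 1 member was higher and 4 were lower, against 11.8% and 10.6% of all genes. In OVSAHO 2 were higher, against 3.93%, and 0 lower, against 3.83%. Limma gave 6 and 0 there at an unadjusted p under 0.05. The percentages are for called genes only. No share of all genes at the unadjusted p is given, here or below, so counts at it have no background. With no fold threshold 7203 of the 21658 genes and 5 members passed the adjusted p in OVSAHO. In OV-90 7791 genes and 4 members did. In EFO-21 2 were higher, against 7.11%, and 1 was lower, against 7.15%. The members' median difference was 0.47 in OV-90, -0.91 in Kuramochi, 0.48 in OVSAHO and 0.33 in EFO-21, beside -0.06, -0.02, 0.00 and 0.01 for all genes.

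NOTCH3 (chr19:15269849-15311806, minus strand, GRCh37) was the receptor called in most lines with values as deposited. In OVSAHO it was 5.93, 5.99 and 6.02 in parental and 7.64, 7.82 and 7.65 in resistant libraries, and in OV-90 it was 4.80 and 4.95 in parental and 6.57, 6.44 and 6.57 in resistant libraries. In EFO-21 it was 4.72, 4.78 and 4.62 in parental and 5.97, 5.60 and 5.62 in resistant libraries. In each of these lines every resistant library lay above every parental one. The differences were 1.72 in OVSAHO (SE 0.07, adjusted p = 7.54e-05), 1.66 in OV-90 (SE 0.13, adjusted p = 0.00657) and 1.02 in EFO-21 (SE 0.14, adjusted p = 0.00198). In Kuramochi NOTCH3 went the other way, from 8.96, 8.27 and 8.30 to 7.73, 7.70 and 7.34. The groups did not overlap there, but the difference of -0.92 (SE 0.21, adjusted p = 0.0133) was under 2-fold. The EFO-21 call was at the 2-fold threshold and was lost without library 12 or 22, where the lowest difference was 0.902. With the length trend removed NOTCH3 was called in OVSAHO only, at 1.53. It then had 0.999 in OV-90 and 0.942 in EFO-21, both under 2-fold.

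NOTCH1 and NOTCH2 were called in OV-90 only. NOTCH1 was 3.86 and 3.43 in parental and 4.78, 4.86 and 4.80 in resistant libraries, and NOTCH2 was 3.86 and 4.87 against 6.12, 5.98 and 6.32. The groups did not overlap for either gene, and parental library 2 held the lowest NOTCH2 value. The differences were 1.17 for NOTCH1 (SE 0.21, adjusted p = 0.0231) and 1.78 for NOTCH2 (SE 0.34, adjusted p = 0.0253). With the length trend removed NOTCH1 had 0.44 (adjusted p = 0.291), not called, and NOTCH2 had 1.01, still called. Both calls were lost without library 13, 14 or 15. In OVSAHO NOTCH2 was higher by 0.79 (adjusted p = 0.0025), under 2-fold. NOTCH2 shares near-identical sequence with the NOTCH2NL genes, so its value is uncertain where reads could be split. NOTCH2NLA, 1 of 4 such copies searched for and the one in the table, was 7.24 and 6.43 in parental and 5.79, 5.81 and 5.89 in resistant OV-90, without overlap. It fell by 1.01 (adjusted p = 0.0424), opposite to NOTCH2. That call was at the 2-fold threshold, and the fall was smaller against parental library 3 than against library 2. NOTCH4 was not called in any line, and its groups overlapped in all 4.

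JAG1 (chr20:10618332-10654647, minus strand, GRCh37) was called in 3 lines and in both directions. In OV-90 it was 6.92 and 7.89 in parental and 9.07, 9.02 and 9.18 in resistant libraries, and in EFO-21 it was 8.49, 8.39 and 8.43 against 9.88, 9.62 and 9.61. In Kuramochi it was 8.84, 8.23 and 8.29 against 6.92, 6.88 and 6.54. No groups overlapped in these 3 lines. JAG1 rose by 1.69 in OV-90 (SE 0.30, adjusted p = 0.0217) and by 1.26 in EFO-21 (SE 0.08, adjusted p = 0.000119), and it fell by 1.67 in Kuramochi (SE 0.19, adjusted p = 0.000781). In OVSAHO it was higher by 0.61 (adjusted p = 0.00285), under 2-fold.

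The other ligands moved less uniformly. JAG2 was lower by 0.89 in Kuramochi (adjusted p = 0.000284) and higher by 0.52 in EFO-21 (adjusted p = 0.00133), both under 2-fold and both without overlap. DLL1 was 1.68, 1.87 and 1.02 in parental Kuramochi and 4.58, 4.52 and 4.58 in resistant Kuramochi, with no overlap. It rose by 3.04 (SE 0.27, adjusted p = 0.000269), but parental libraries 4 and 6 were at the bottom, so the size of the rise is not a measured fold. In EFO-21 DLL1 was 2.05, 2.50 and 2.82 in parental and 1.69, 1.12 and 0.831 in resistant libraries, all 3 of the latter at the bottom, and it fell by 1.25 (SE 0.30, adjusted p = 0.0162). That call was lost without library 23, and with values raised to the 10th percentile the difference was -0.612, under 2-fold. In OV-90 and OVSAHO the DLL1 groups overlapped.

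The promoters of HES1 and HEY2 are shown because both targets fell in Kuramochi and because RBPJ is known to bind the core TGGGAA. The promoters are from RefSeq (GRCh38.p14), run from 250 bases before to 50 bases after the start, and carry the letters TGGGAA or their reverse complement TTCCCA in capitals. Each of the pair held 2 matches. Of the 35116 promoters of 300 bases in the table, 24% held at least 1 match and 3.8% at least 2. The HES1 promoter lies at chr3:194135898-194136197 and the HEY2 promoter at chr6:125749382-125749681, both on the plus strand. In HES1 the matches begin 84 and 70 bases before the start, and in HEY2 they begin 213 and 3 bases before it. Of the 8 members whose promoters were examined these were the 2 with a match. The promoters of DLL1 and HEY1 were left out, so whether either holds a match was not tested. HEY1 is also a target that fell in Kuramochi, so the matches do not cover all the targets that fell. The JAG1 promoter has 0 matches although JAG1 also fell in Kuramochi, and a match is a run of letters, not a shown binding site.
HES1: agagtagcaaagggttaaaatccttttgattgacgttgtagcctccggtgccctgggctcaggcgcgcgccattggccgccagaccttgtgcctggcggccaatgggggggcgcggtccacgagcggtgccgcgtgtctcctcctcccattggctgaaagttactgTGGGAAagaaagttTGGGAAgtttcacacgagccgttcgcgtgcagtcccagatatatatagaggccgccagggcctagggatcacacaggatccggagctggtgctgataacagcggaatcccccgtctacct
HEY2: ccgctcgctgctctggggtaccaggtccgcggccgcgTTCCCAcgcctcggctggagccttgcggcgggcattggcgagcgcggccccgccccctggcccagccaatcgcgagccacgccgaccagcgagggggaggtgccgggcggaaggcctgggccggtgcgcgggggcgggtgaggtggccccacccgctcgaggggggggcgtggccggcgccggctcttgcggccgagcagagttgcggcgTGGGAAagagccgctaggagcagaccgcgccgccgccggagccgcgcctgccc

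In Kuramochi all 3 targets fell. HEY2 was 7.05, 7.25 and 7.42 in parental and 2.84, 3.36 and 3.89 in resistant libraries, and HEY1 was 5.90, 5.46 and 5.97 against 4.35, 3.57 and 3.72. HES1 was 8.47, 8.74 and 8.65 against 7.49, 7.30 and 7.72. The parental and resistant values did not overlap for any of the 3. HEY2 fell by 3.88 (SE 0.28, adjusted p = 0.000134), a 14.7-fold difference, HEY1 fell by 1.90 (SE 0.27, adjusted p = 0.00185) and HES1 fell by 1.12 (SE 0.13, adjusted p = 0.000804). These calls and that of JAG1 held without any 1 library of the line. Without library 4 the differences were -3.97 for HEY2, -1.83 for HEY1, -1.19 for HES1 and -1.48 for JAG1. HEY2 has an antisense neighbour, HEY2-AS1, that starts on the opposite strand at the same promoter, and whether the counting used strand is not given in the sources used here.

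The targets were next compared in the other lines. In OVSAHO HES1 was 6.82, 6.64 and 6.86 in parental and 7.70, 7.49 and 7.61 in resistant libraries, a difference of 0.83 (adjusted p = 0.00134) without overlap and under 2-fold. HEY1 was 1.59, 2.35 and 1.53 against 3.08, 3.10 and 3.11 there, without overlap, and rose by 1.27 (SE 0.26, adjusted p = 0.0135) from parental values of which 2 were at the bottom. In EFO-21 HES1 was higher by 0.55 (adjusted p = 0.00246), under 2-fold. In OV-90 HES1 was 10.40 and 10.36 against 10.41, 10.34 and 10.47, with overlap (difference 0.03, adjusted p = 0.767). With the length trend removed that difference was 0.344 (adjusted p = 0.0452), under 2-fold. HEY1 in OV-90 had a difference of 0.71 (adjusted p = 0.136) and was not called, with 0.26 (adjusted p = 0.304) without library 2 and a call at 1.17 (adjusted p = 0.0128) without library 3. HEY1 in EFO-21 had 0.23 (adjusted p = 0.506), with overlap. HEY2 was not called in these 3 lines. It had -0.75 in OV-90 (adjusted p = 0.26), with overlap and 2 of 3 resistant libraries at the bottom, and 0.09 in OVSAHO (adjusted p = 0.679), with overlap, and in EFO-21 every library was at the bottom. Without a library the OV-90 difference of HEY2 ran from -1.15 without library 13 to -0.418 without library 2.

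**Figure D2:**
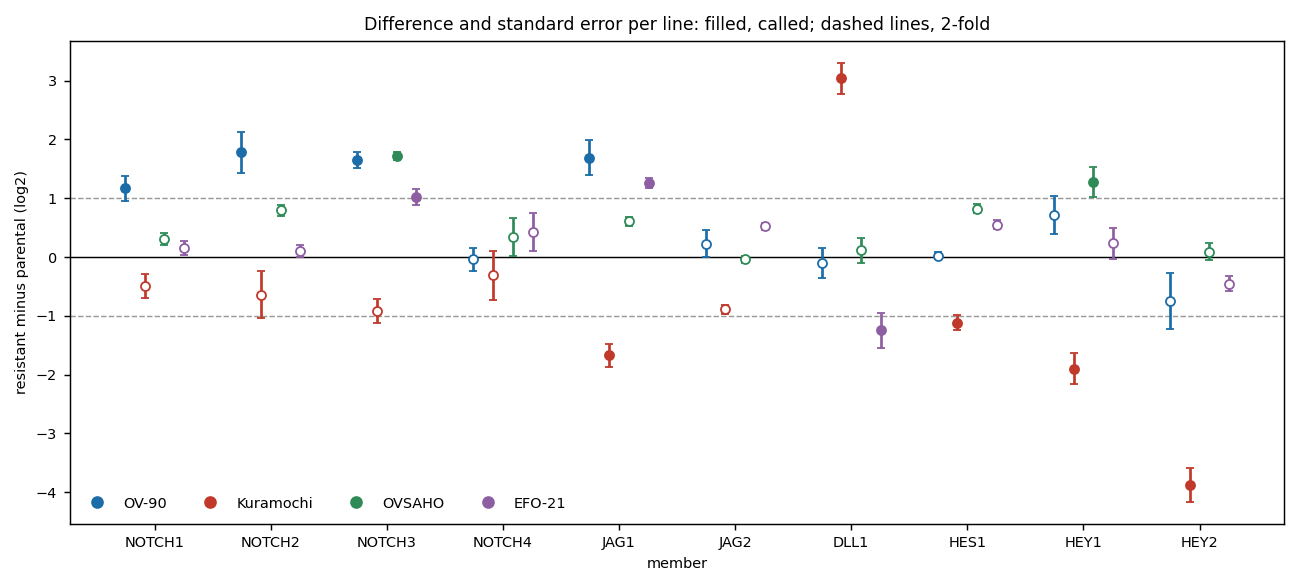
Difference between resistant and parental group means on the log2 scale for the 10 genes in each line, with bars for the standard error, filled circles for called differences and dashed lines at 2-fold. Kuramochi differences are below 0 for 9 of the genes, and DLL1 at 3.04 is the exception.

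The difference between lines in the response was tested directly over the 23 libraries. Of 60 tests 28 were called, and 23 of these involved Kuramochi, against 5 of 30 between the other lines. The called members numbered 9 for OV-90 against Kuramochi, where 33.8% of all genes were called, 7 for Kuramochi against OVSAHO (24.3%) and 7 for Kuramochi against EFO-21 (26.6%). They numbered 3 for OV-90 against EFO-21 (24.9%), 1 for OV-90 against OVSAHO (17.1%) and 1 for OVSAHO against EFO-21 (15.7%). At least 1 pair was called for 9 of the 10 members, against 55.2% of all genes. The comparisons that involve Kuramochi share its 6 libraries. Each of the 5 calls between the other lines was lost under at least 1 alternative. Of those for OV-90 minus EFO-21, NOTCH1 had 0.354 (adjusted p = 0.204) with the length trend removed and 0.989 with libraries recentred, and was also lost without library 3, 14, 23 or 24. NOTCH2 had 0.972 with the length trend removed and 1.17 (adjusted p = 0.0507) without library 2. DLL1 had 0.511 with values raised to the 10th percentile and was also lost without library 2, 12, 13 or 24. JAG1 in OV-90 minus OVSAHO had 0.763 with the length trend removed and 0.598 without library 2, and DLL1 in OVSAHO minus EFO-21 had 0.723 with values raised. Calls were also gained between these lines. HEY1 in OVSAHO minus EFO-21 was 1.04 (adjusted p = 0.0567) as deposited and was not called. It gained a call without library 2, 3, 8, 16 or 24 and with the length trend removed. In OV-90 minus OVSAHO, HEY2 gained a call without library 13, NOTCH1 without library 2 and NOTCH2 without library 3. Fits without library 2 or 3 keep a lone parental OV-90 library. Of the calls with Kuramochi, JAG2 in OV-90 minus Kuramochi had 0.719 with the length trend removed and 0.877 without library 3, and NOTCH1 had 0.863 with the length trend removed, all under 2-fold. NOTCH3 responded lower in Kuramochi than in OVSAHO by 2.64 (SE 0.21, adjusted p = 1.01e-08), and JAG1 responded higher in OV-90 than in Kuramochi by 3.37 (SE 0.28, adjusted p = 1.24e-08). HES1 responded lower in Kuramochi than in OVSAHO by 1.94 (SE 0.14, adjusted p = 2.48e-09).

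The OV-90 result has 2 limits. Each of its 4 called members lost the call when a resistant library was left out: without library 13 or 15 limma called 0 of the 10 members, with 4 higher at an unadjusted p under 0.05 in each case and 1 lower without library 13, and without library 14 it called 1, NOTCH3. Of all genes 1.43%, 1.96% and 1.64% were called without library 13, 14 and 15, against 16.1% with all libraries, so these counts say little about the members. The differences stayed close without a resistant library: without library 13 they were 1.19 for NOTCH1, 1.79 for NOTCH2, 1.63 for NOTCH3 and 1.70 for JAG1, and without library 15 they were 1.18, 1.69, 1.64 and 1.65. They moved more without a parental library: NOTCH2 had 1.27 without library 2 and 2.29 without library 3, JAG1 had 1.21 and 2.17, NOTCH3 had 1.58 and 1.73, and NOTCH1 had 1.38 and 0.96, where its call was lost. The parental group has 2 libraries, and both read long transcripts low. In OV-90 the median difference over length groups of genes ran from -0.46 for the shortest to 0.66 for the longest group, and the longest transcripts of NOTCH1, NOTCH2 and NOTCH3 have 9855, 11425 and 8680 bases. Removing each library's trend over length left 2 members called higher, against 6.47% of genes in that fit, NOTCH2 at 1.01 (adjusted p = 0.0229) and JAG1 at 1.28 (adjusted p = 0.0159), while NOTCH3 had 0.999 (adjusted p = 0.0111), just under 2-fold, and NOTCH1 had 0.44 (adjusted p = 0.291). Of the 19596 genes with a transcript length, 1920 were called higher and 1242 lower in OV-90 as deposited, and 1268 and 1352 after the removal.

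**Figure D3:**
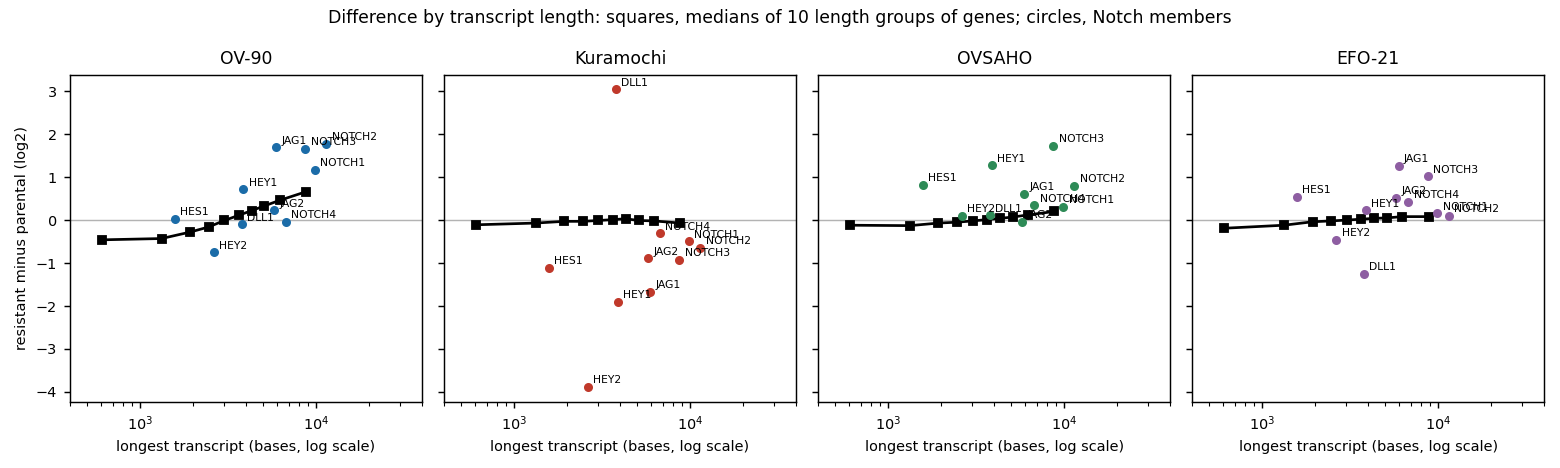
Resistant minus parental difference on the log2 scale against the longest transcript in bases on a log axis, with squares for the medians of 10 groups of genes by length and circles for the 10 Notch genes, in each line. In OV-90 the squares climb from -0.46 to 0.66 and in Kuramochi they stay between -0.11 and 0.03.

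The same removal left the Kuramochi calls at 1 higher and 4 lower, against 12.6% and 10.5% of genes in that fit, and the OVSAHO calls at 2 higher, against 3.73%. In EFO-21, where the 3 resistant libraries carry a length trend, it left 1 higher and 1 lower, against 7.47% and 6.81%, since NOTCH3 had 0.94 (adjusted p = 0.00137), under 2-fold.

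Of 44 other pathway genes listed, 41 were in the table. In OV-90 5 rose and 3 fell, which is 12.2% and 7.32% of the 41, against 9.50% and 6.56% of all genes. In Kuramochi 3 rose and 2 fell, 7.32% and 4.88% against 11.8% and 10.6%. In OVSAHO 2 rose and 2 fell, 4.88% each way against 3.93% and 3.83%, and in EFO-21 1 rose and 1 fell, 2.44% each way against 7.11% and 7.15%. Nothing is read from these shares, since the counts are small and in OV-90 they changed with the library left out, as given below. The median differences were 0.15, -0.01, 0.08 and 0.24, beside -0.06, -0.02, 0.00 and 0.01 for all genes. The OV-90 median turned negative with the length trend removed, so nothing is read from it. Per line, up to 3 of the largest rises and falls without overlap are named.

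In Kuramochi the falls were in 2 of 5 further targets. The other 3, named after their values were seen, were not called and went both ways, with HES7 at 0.82 (adjusted p = 0.0337), HEYL at 0.75 (adjusted p = 0.0917) and CCND1 at -0.34 (adjusted p = 0.255). NRARP, a Notch-induced feedback regulator, was 10.50, 10.68 and 10.71 in parental and 8.49, 8.50 and 8.58 in resistant libraries, and HES4 was 8.75, 9.44 and 9.66 against 7.10, 6.74 and 7.07. Neither gene's groups overlapped. NRARP fell by 2.11 (adjusted p = 1.09e-05) and HES4 fell by 2.32 (adjusted p = 0.000562). The rises were LFNG by 1.69 (adjusted p = 3.51e-05), MFNG by 1.42 (adjusted p = 0.00663), both Fringe glycosyltransferases that modify Notch receptors, and DTX1 by 1.09 (adjusted p = 0.0273). DTX1 was at the bottom in every parental library, and its call was lost with values raised to the 10th percentile (difference 0.302, adjusted p = 0.229) and without library 4, 6, 16 or 17.

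In OVSAHO HES4 and LFNG moved the other way from Kuramochi. HES4 rose by 1.61 (adjusted p = 0.00607) and LFNG fell by 1.09 (adjusted p = 0.000598), while DLK2 rose by 1.10 (adjusted p = 0.002) and DTX4 fell by 1.34 (adjusted p = 0.00476). DLK2 was under 2-fold without library 9, with a lowest difference of 0.974. By the test of the difference, Kuramochi responded lower than OVSAHO in HES4 by 3.93 (adjusted p = 1.49e-08) and higher in LFNG by 2.78 (adjusted p = 9.31e-12). In EFO-21 NEURL1B rose by 1.02 (adjusted p = 0.00222) and HES7 was called lower (adjusted p = 0.0061) with every library of both groups at the bottom, so no fold is given. The NEURL1B call was lost without library 12 or 22 and with the length trend removed.

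In OV-90 MIB1, a ubiquitin ligase for Notch ligands, rose by 2.11 (adjusted p = 0.0174), MAML1 by 1.34 (adjusted p = 0.03) and CCND1 by 1.31 (adjusted p = 0.016). DTX2 fell by 1.18 (adjusted p = 0.0174), PSEN2 by 1.10 (adjusted p = 0.0273) and DTX3 by 1.06 (adjusted p = 0.0412). Each of these 6 lost its call without any 1 of the 3 resistant libraries, where limma called 0 of the 41 genes, with 12 higher at an unadjusted p under 0.05 in each case and 4, 5 and 3 lower without library 13, 14 and 15. At the shares of all genes given above for those fits, that 0 says nothing about these genes. The differences stayed close: MIB1 had 2.04 to 2.17, CCND1 1.24 to 1.35 and DTX2 -1.23 to -1.12 in those fits. They moved more without a parental library, where MIB1 ran from 1.64 to 2.57 and MAML1 from 0.876 to 1.805. DTX2, DTX3, MAML1 and PSEN2 also lost the call without parental library 2, which left 2 of the 41 called, against 17 without parental library 3, where 11.1% and 27.6% of all genes were called. With the length trend removed 2 rose, MIB1 and CCND1, and 3 fell. MAML1 then had 0.934, and the 2 other genes that had risen, ADAM10 and ITCH, named after their values were seen, went from 1.20 and 1.01 to 0.434 and 0.462.

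**Figure D4:**
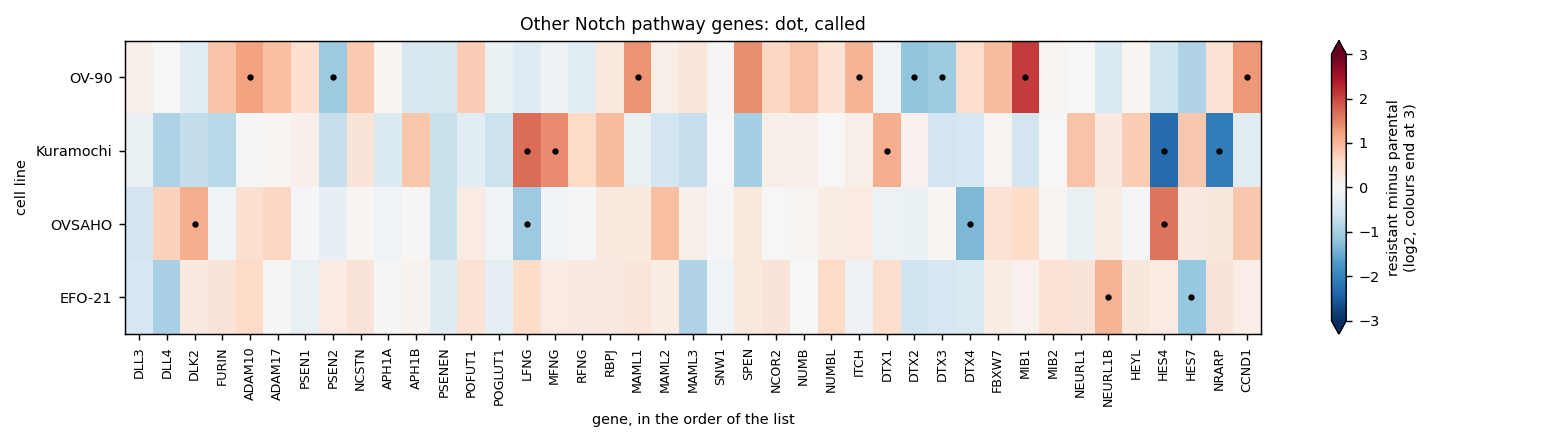
Resistant minus parental difference on the log2 scale for 41 other Notch pathway genes in the 4 lines, as colours that end at 3, with a dot for each called difference. NRARP and HES4 in Kuramochi are the darkest blue cells at -2.11 and -2.32.

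Cell type markers were read beside these results. In Kuramochi 4 of 5 epithelial markers fell, among them EPCAM by 3.79 (adjusted p = 3.34e-05) and CDH1 by 3.00 (adjusted p = 0.000117). The log2 of their summed level went from 12.77, 12.99 and 13.08 to 11.90, 11.82 and 11.86, and KRT18 was the most abundant in both groups. In OVSAHO 3 of 5 fell, EPCAM by 3.01 (adjusted p = 1.23e-05) among them, with sums of 11.25, 11.19 and 11.27 against 10.16, 10.07 and 10.06. Of the Mullerian and ovarian carcinoma markers 4 of 5 fell in Kuramochi, WT1 by 2.25 (adjusted p = 1.6e-05) among them, with sums of 12.63, 12.57 and 12.65 against 11.59, 11.54 and 11.51 and SOX17 the most abundant in both groups. The endothelial marker CDH5 rose by 2.87 in Kuramochi (adjusted p = 7e-05) while VWF fell by 2.00 (adjusted p = 0.000464). In resistant Kuramochi CDH1 was at the bottom in all 3 libraries and VWF in 1, so the sizes of their falls are not measured folds. In OV-90 0 of 5 epithelial and 0 of 4 leukocyte markers were called by limma, with 3 and 3 lower at an unadjusted p under 0.05. Their sums were lower without overlap, at 14.53 and 14.33 against 13.98, 14.03 and 13.97 and at 7.76 and 7.04 against 6.58, 6.51 and 6.66. There 1 of 4 endothelial markers rose and 1 fell, the most abundant being PECAM1 in parental and TEK in resistant libraries, with sums of 6.56 and 6.55 against 6.57, 6.49 and 6.71. Of the ovarian markers 1 of 5, MECOM, rose in OV-90, with sums of 6.87 and 7.27 against 7.92, 7.97 and 8.01. In EFO-21 CDH1 rose by 1.39 (adjusted p = 0.000358) while the epithelial sums were 13.30, 13.32 and 13.37 against 12.73, 12.77 and 12.79. In OVSAHO 1 of 5 ovarian markers fell, with sums of 12.26, 12.29 and 12.41 against 12.65, 12.57 and 12.50. Of the 5 sums per line, 1 was higher and 3 lower without overlap in OV-90 and in Kuramochi, and 3 were higher and 2 lower in OVSAHO and in EFO-21. The part of these shifts in the Notch differences was not tested, and fewer cells of a kind and less RNA per cell cannot be told apart in bulk libraries. In OV-90 the defining ovarian markers PAX8 and WT1 were low at 2.10 and 1.87 in parental libraries, while EPCAM was at 12.30. Of the same 5 ovarian markers MECOM, at 6.68, was above the median of gene means there. WT1 was also low in parental EFO-21, at 1.03, where PAX8 was at 8.44. In parental EFO-21 2 of 4 endothelial markers were above the median of gene means, CDH5 highest at 9.11, while VWF was at 3.65 and 1 was at the bottom in every library. In parental OV-90 3 of 4 fibroblast markers were above that median, LUM highest at 12.76, while PDGFRB was at 2.25. Of 4 fibroblast markers 2 rose and 2 fell in Kuramochi, and 2 rose, LUM from 2.03, with 2 of 3 parental libraries at the bottom, to 6.76 among them, and 1 fell in OVSAHO. Of 4 leukocyte markers 1 fell in Kuramochi, 2 in OVSAHO and 1 in EFO-21.

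For likeness, the receptor, ligand and target with the widest range of the 8 group means were NOTCH2 (3.96), JAG2 (4.78) and HEY2 (7.11). The choice of NOTCH2 rests on parental OV-90 library 2: NOTCH3 had 3.80, and without that library NOTCH2 had 3.45, below NOTCH3. The genes closest to NOTCH2 by root mean square difference of centred profiles over the 8 group means were TOPORS (0.29), CENPF (0.33) and PROB1 (0.34), against a median of 1.31 over 10828 candidates. Among the 3 closest to JAG2 were KIRREL1 (0.39) and MSX1 (0.39), against 1.81 over 10829. Among the 3 closest to HEY2 were LINC01139 (1.24) and PLPP3 (1.27), against 2.39 over 10829.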

How the data were processed

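The authors sequenced stranded mRNA libraries, aligned the reads to GRCh37 (hg19 in the submitters' processing notes), left out exons with few reads and deposited 1 log2 expression value per gene and library, quantile normalized. For 16448 genes the value came from a robust linear model over exons and for 5210 from a mean of log2 exon values. The table holds no counts, so depth is unknown, and columns name the line and state but no replicate.

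The members and lists were chosen with earlier results of these data known. Symbols came from RefSeq for 20745 of 21658 genes (95.8%). Positions and transcript lengths are from GENCODE lifted to GRCh37, promoters from RefSeq (GRCh38.p14). Fits used limma 3.58.1 in R 4.3.3 (lmFit, then eBayes with trend, two-sided, adjusted by Benjamini-Hochberg over all genes), per line for the response, over the 11 parental libraries for the baseline and over all 23 for differences in response. Exact permutation p-values cannot go below 0.1 for 3 against 3 or 0.2 for 2 against 3 libraries, so none is given. Tables and figures used Python 3.11.15, pandas 2.3.3, numpy 2.4.6 and matplotlib 3.10.9.

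Named genes are the 10 members, per line the 3 largest rises and falls of called pathway genes without overlap, the likeness genes, and at most 2 markers of each kind. The alternatives were one fit of all libraries, no trend, a filter at the 25th percentile of gene means, recentred libraries, values raised to the 10th percentile, no fold threshold and each library left out. A removal of the trend over transcript length (20 bins, 19596 genes with a length, 90.5%) was added after seeing the data.

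The code was run on simulated libraries with changes spread over all genes. Its calls had the right sign and its estimates were centred, but it did not recover all changes: those of highly variable, mostly low genes were largely missed. A first pass mark on overall recovery was not met, and the pass marks in use, on sign, error, false calls and the less variable genes, were set after that.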

Additional observations from a re-analysis of the deposited data

Results flagged for a closer look

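For 9 of the 10 members the response differed between lines by limma's test of the difference itself (all but NOTCH4) in at least 1 of 6 pairs of lines, against 55.2% of all genes. The largest difference of each was as follows, and the comparisons share libraries. OV-90 minus Kuramochi was 1.67 for NOTCH1 (adjusted p = 1.11e-05), 2.42 for NOTCH2 (adjusted p = 0.000129) and 3.37 for JAG1 (adjusted p = 1.24e-08). Kuramochi minus OVSAHO was -2.64 for NOTCH3 (adjusted p = 1.01e-08), -1.94 for HES1 (adjusted p = 2.48e-09), -3.17 for HEY1 (adjusted p = 3.67e-06) and -3.97 for HEY2 (adjusted p = 3.9e-07). Kuramochi minus EFO-21 was -1.42 for JAG2 (adjusted p = 1.08e-07) and 4.29 for DLL1 (adjusted p = 2.8e-08). With the length trend removed, an alternative chosen after seeing the data, the NOTCH1 difference was 0.863 (adjusted p = 0.00316), under 2-fold, and the NOTCH2 difference was 1.57 (adjusted p = 0.000127), still called. The DLL1 difference rests on libraries at the bottom in both lines, the HEY1 difference on parental OVSAHO libraries 7 and 9 at the bottom, so their sizes are not measured folds. NOTCH4 gained a call without library 4, where Kuramochi minus EFO-21 was -1.15, against -0.73 with all libraries.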

How the results depend on the processing

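No paired analysis was possible because the columns carry no replicate numbers. With no fold threshold the genes changed numbered 7791 in OV-90, 10158 in Kuramochi, 7203 in OVSAHO and 10478 in EFO-21, and the members 5 in OVSAHO and 6 in EFO-21. Keeping genes above the 25th percentile of means left 3007 genes in Kuramochi, 874 in OVSAHO and 1661 in EFO-21, with 2 members in Kuramochi and 1 in OVSAHO, 25 baseline and 17 response differences; it keeps 6 of the 10 members and drops NOTCH4, DLL1, HEY1 and HEY2. Removing the length trend left 2 members in OV-90.

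Leaving out 1 library gave 309 to 5975 genes and 0 to 4 members in OV-90: 309, 425 and 356 genes without resistant library 13, 14 or 15, and 5975 without parental library 3. The fit without library 2 or 3 has a lone parental library that is assumed to vary like the resistant ones. The ranges were 4549 to 4893 genes and 5 to 6 members in Kuramochi, 1484 to 1688 and 2 in OVSAHO, and 2866 to 2936 and 2 to 3 in EFO-21, with 38 to 45 baseline and 27 to 29 response differences. In OV-90 HEY1 was called without library 3 (highest difference 1.17), and in Kuramochi NOTCH3 was called without library 5 or 6 (lowest -1.04).

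Leaving out 1 library changed the sign of 7 of 40 member responses, given below, and of 25 of 164 responses of other pathway genes (8 in OV-90, 7 in Kuramochi, 7 in OVSAHO and 3 in EFO-21). None of these was called with all libraries, at differences up to 0.539, but 2 in OV-90 were called without library 3. In OV-90, leaving out 1 library gave NOTCH4 -0.13 to 0.057 (0.015 without 13, 0.057 without 2), JAG2 -0.016 to 0.468 (lowest without 3), DLL1 -0.299 to 0.098 (highest without 3) and HES1 -0.007 to 0.056 (lowest without 15), and JAG2 had -0.181 with the length trend removed. Without library 8 in OVSAHO DLL1 had -0.044 and HEY2 -0.009 (ranges up to 0.303 and 0.193), and without library 22 in EFO-21 NOTCH2 had -0.011 (up to 0.189). HEY2 and HES7 in EFO-21 had 0.023 with values raised to the 10th percentile, so the HES7 call there rests on values at the bottom. Of 2211 values for members, pathway genes in the line where they are named, and pathway counts under alternatives, 2083 kept direction and side of the threshold or, for counts, stayed within 1.5 times; 91 lost a call, 11 gained one, 11 changed sign and 15 counts moved further. These leave out member comparisons between lines that were not called as deposited, which gained 13 calls for the parental level and 10 for the response, beside 21 and 19 lost among the 91. With the length trend removed 6 and 5 were lost and 3 and 1 gained, and without library 5 the parental levels gained 4. The cause was not tested. Unknown depth limits all of these.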
